A study of Mus musculus with 6 samples.

Results

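The account covers 10 genes, 5 that encode leukocyte adhesion molecules (Vcam1, Icam1, Icam2, Selp and Sele) and 5 that NF-kB induces or that act in NF-kB feedback (Nfkbia, Tnfaip2, Tnfaip3, Relb and Nfkb2). They were taken by symbol from a table of 15917 genes, and all 10 were found. All 10 also had a mean of at least 1 FPKM (fragments per kilobase of transcript, scaled to the mapped fragments of the library) and so were among the 10400 genes tested, Tnfaip3 with little room. The cells were bEnd.3, a mouse brain endothelial line transformed with polyoma middle T antigen. One group carried a short hairpin RNA against Npc1 (shNpc1, replicates 4, 5 and 6) and the other a control hairpin (shControl, replicates 1, 2 and 3), which a further label tag calls WT. The labels give no treatment, no cytokine and no time, and do not state whether the replicates of a group came from different cultures, or whether 1 or several hairpins were used in shNpc1 cells. The p-values therefore set the difference between the groups against the scatter of these samples, some or all of which may be technical. A difference tied to 1 hairpin or 1 culture cannot be told apart from one of the knockdown.

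Leukocytes leave the blood in steps that these endothelial molecules serve. Selectins such as P-selectin and E-selectin slow the cells so that they roll, and members of the immunoglobulin superfamily such as VCAM-1, ICAM-1 and ICAM-2 bind leukocyte integrins and hold them. Most of these genes are induced in endothelium by cytokines through NF-kB, a family of transcription factors kept in the cytoplasm by inhibitors such as IkBα until the IkB kinase complex marks the inhibitor for breakdown. NF-kB in turn induces genes that restrain it, among them Nfkbia and Tnfaip3, so that the transcripts of these feedback genes are often read as a sign of recent NF-kB activity.

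Npc1, which encodes the transporter by which cholesterol leaves the lysosome, had 0.45, 1.20 and 0.97 FPKM in the shNpc1 libraries, against 6.31, 6.63 and 7.27 FPKM in the shControl libraries. The shNpc1 mean was 13.0% of the shControl mean (exact two-sided permutation p = 0.1, the smallest that 3 against 3 samples allow). Of 14 endothelial marker genes 12 were tested. At an adjusted p under 0.05, Eng was higher (ratio 1.26, limma adjusted p = 0.0250) and none was lower. Of all genes tested, 12.0% were higher and 5.89% lower at that threshold. Pecam1 had 475 to 513 FPKM in the shNpc1 libraries and 536 to 555 FPKM in the shControl libraries. At an unadjusted p under 0.05, 3 of the 12 were higher and 2 lower, beside 21.9% and 12.8% of all genes tested. At q under 0.05, 1 was higher and 1 lower in the authors' deposited table, beside 6.48% and 5.60% of its genes. Genes with a mean under 1 FPKM are part of these q shares but not of the 12. The 14 markers summed to 1874 to 1964 FPKM in the shNpc1 libraries and 1972 to 2004 FPKM in the shControl libraries. Vwf stayed under 1 FPKM in every library, and Cldn5 was listed at 0 in 5 libraries and at 0.05 in shNpc1 replicate 6. Leukocyte markers other than Cd68 (6 genes in the table) summed to 0.86 to 0.91 FPKM in the shNpc1 libraries and 0.89 to 1.32 FPKM in the shControl libraries. Ptprc, the pan-leukocyte marker, was listed at 0 in the shNpc1 libraries and at 0.02 FPKM or less in the shControl libraries. Cd68, whose protein sits in lysosomes, averaged 233 ± 22.0 FPKM in shNpc1 cells and 110 ± 4.05 FPKM in shControl cells (SD, n = 3 each). The 7 pericyte and smooth muscle markers in the table summed to 1.02 to 1.32 FPKM in the shNpc1 libraries and 0.78 to 1.12 FPKM in the shControl libraries. For the 5 fibroblast, 6 epithelial and 5 glial or neuronal markers the sums reached at most 0.87, 3.40 and 0.38 FPKM in the shNpc1 libraries and 1.37, 3.22 and 0.61 FPKM in the shControl libraries. The deposited values carry no read counts, so the depth behind each value is unknown.

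In the Npc1 knockdown the 10 genes went different ways. Tnfaip2, Selp and Nfkbia rose, by ratios of 1.57, 1.30 and 1.21 of the mean FPKM, and Icam2 fell to a ratio of 0.732. Icam1, Vcam1, Sele, Tnfaip3, Relb and Nfkb2 did not pass the threshold (limma, Benjamini-Hochberg adjusted p under 0.05 over all genes tested). The members that rose were thus 3 of 10, where 12.0% of all genes tested rose, and the 1 of 10 that fell stood beside 5.89% of all genes. Scaling moved that background: with library medians equalised 8.12% of all genes rose and 7.26% fell, and with the trimmed mean of M values 9.44% rose and 7.12% fell. For 6 of the 10 the 3 values of one group lay wholly above or below those of the other. The same was true of 43.5% of all genes tested, so the members' share is not far from the background. The median log2 fold change was 0.051 over the members and 0.026 over all genes tested. In bulk RNA a change in the level per cell and a change in the number of cells that express a gene cannot be told apart.

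**Figure D1:**
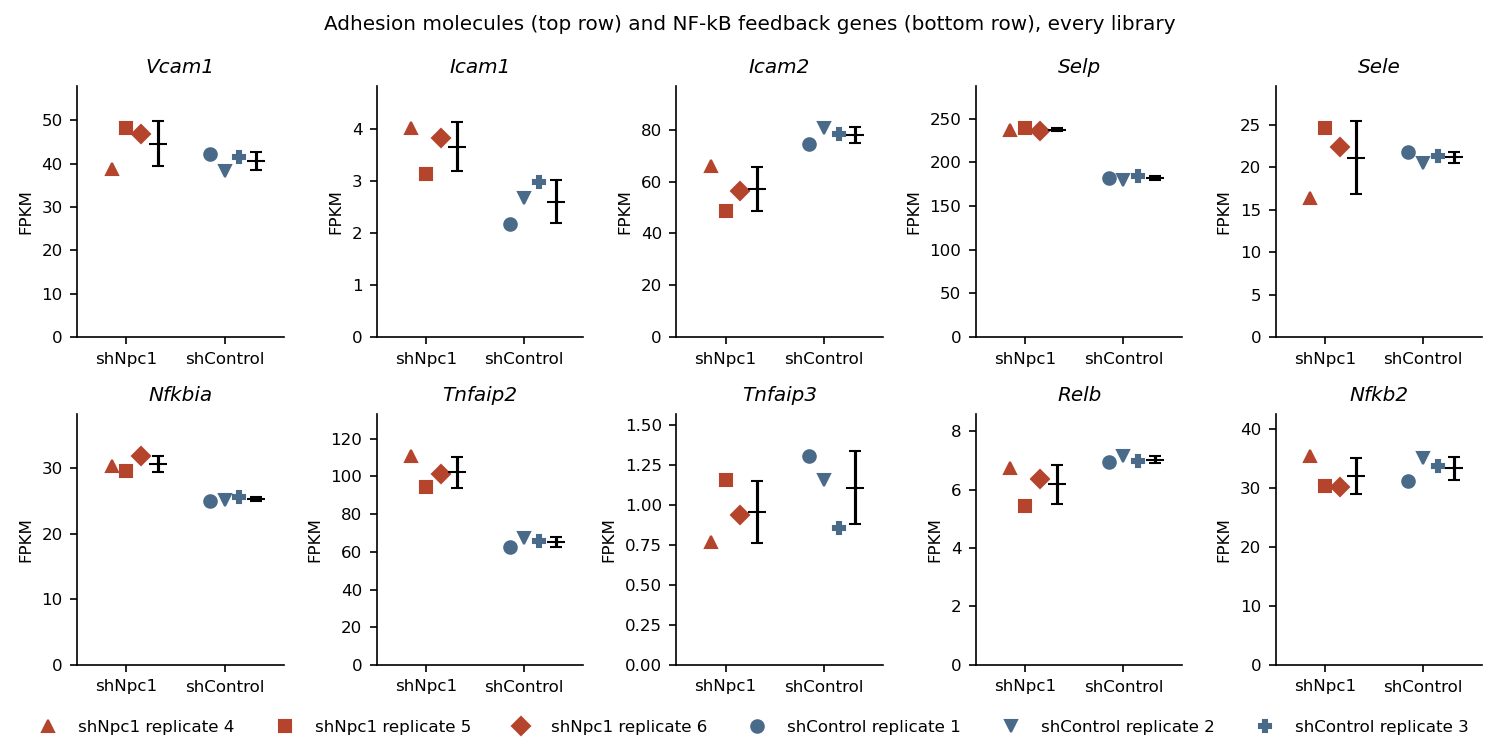
FPKM of each of the 10 genes in every library (vertical axes start at 0 and differ between panels), with shNpc1 libraries in red left of shControl libraries in blue; the black dash and bar give the group mean and SD (n = 3). The 3 shNpc1 values of Selp, Nfkbia and Tnfaip2 lie above all shControl values and those of Icam2 below, while in the shNpc1 group of Sele and Vcam1 replicate 4 is the lowest.

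The levels spanned from about 1 to over 200 FPKM, a scale that is already per transcript length. In shControl libraries the order of the mean FPKM was Selp, Icam2, Tnfaip2, Vcam1, Nfkb2, Nfkbia, Sele, Relb, Icam1 and Tnfaip3, and the 3 values of each gene lay above those of the next. In shNpc1 libraries Tnfaip2 stood above Icam2, and Nfkb2 and Nfkbia overlapped. Selp was the most abundant member and had a higher shControl mean than 96.5% of the genes in the table. Icam1 was the least abundant of the 5 adhesion members, with a shControl mean above that of 41.0% of the genes.

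Selp (gene 20344) encodes P-selectin, which endothelium stores in Weibel-Palade bodies and brings to its surface within minutes of a stimulus. It had 236.51, 239.41 and 235.98 FPKM in shNpc1 replicates 4, 5 and 6, against 182.1, 179.77 and 184.08 FPKM in shControl replicates 1, 2 and 3. The groups did not overlap, and the libraries of each group lay within a few FPKM of each other. The log2 fold change of FPKM + 1 was 0.38 (SE 0.05, 95% confidence interval 0.26 to 0.50, limma adjusted p = 0.00546), and the call held in all 18 alternative settings. Sele (gene 20339), which encodes E-selectin and lies beside Selp in the selectin cluster of chromosome 1, had 16.38, 24.66 and 22.43 FPKM in the shNpc1 libraries, against 21.78, 20.47 and 21.36 FPKM in the shControl libraries. Replicate 4 was below all shControl values and replicates 5 and 6 were above them, so that the groups overlapped. Its log2 fold change was -0.02 (95% confidence interval -0.36 to 0.31, limma adjusted p = 0.924). Without shNpc1 replicate 4 the value turned to 0.14 and still did not pass (adjusted p = 0.114). In the RefSeq gene table (GRCm38.p6) Selp overlaps Gm16548 and Sele overlaps Gm51665. Whether the libraries kept strand is not given, so reads of such pairs cannot be told apart.

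Icam2 (gene 15896), whose protein is made by resting endothelium and binds the leukocyte integrin LFA-1, was the member that fell. It had 65.92, 48.78 and 56.54 FPKM in the shNpc1 libraries, against 74.65, 80.75 and 78.46 FPKM in the shControl libraries. All 3 shNpc1 values lay below the lowest shControl value, replicate 4 the closest to it. The log2 fold change was -0.45 (SE 0.11, 95% confidence interval -0.71 to -0.19, limma adjusted p = 0.0324). The call was lost without shControl replicate 1 (adjusted p = 0.0984), 2 (0.115) or 3 (0.122) or without shNpc1 replicate 6 (0.105), without a filter (0.0541) and with library medians equalised (0.0503), within a range of 0.000121 to 0.122 over all settings, and its sign did not change. Icam1 (gene 15894), which encodes a ligand of LFA-1 and Mac-1, had 4.03, 3.14 and 3.83 FPKM in the shNpc1 libraries, against 2.17, 2.67 and 2.99 FPKM in the shControl libraries. The groups did not overlap, though the nearest pair was 3.14 and 2.99 FPKM. The log2 fold change of 0.37 (95% confidence interval 0.09 to 0.65) did not pass after adjustment (limma adjusted p = 0.0740). It passed without shNpc1 replicate 5 (adjusted p = 0.0388) and with sample weights (0.0138), within a range of 0.0138 to 0.237 over all settings.

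A ratio of FPKM within a library does not depend on how libraries are scaled to each other. It can still carry a library's trend with GC content, which is described below. For Icam1 over Icam2 it was 0.0611, 0.0644 and 0.0677 in the shNpc1 libraries, against 0.0291, 0.0331 and 0.0381 in the shControl libraries. The shNpc1 mean was thus 1.93 times the shControl mean, with no overlap. For Selp over Sele it was 14.4, 9.71 and 10.5 in the shNpc1 libraries, against 8.36, 8.78 and 8.62 in the shControl libraries. For Tnfaip2 over Nfkb2 it averaged 3.20 ± 0.131 in shNpc1 cells and 1.96 ± 0.0390 in shControl cells (SD, n = 3 each), and for Selp over Icam2 4.22 ± 0.661 in shNpc1 cells and 2.34 ± 0.107 in shControl cells. For Nfkbia over Rela it averaged 0.792 ± 0.0922 in shNpc1 cells and 0.721 ± 0.0178 in shControl cells, with overlap. The exact two-sided permutation p was 0.1 for the first 4 ratios, the smallest possible, and 0.4 for the last (0.125 and 0.4 adjusted over the 5 ratios, which were chosen after the values were seen).

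Vcam1 (gene 22329) encodes the ligand of the integrin α4β1 and, like Icam1, is induced by cytokines. It had 38.74, 48.22 and 46.84 FPKM in the shNpc1 libraries, against 42.27, 38.32 and 41.44 FPKM in the shControl libraries. Replicates 5 and 6 were above all shControl values and replicate 4 was among them. The log2 fold change was 0.12 (SE 0.10, 95% confidence interval -0.10 to 0.35, limma adjusted p = 0.380). Without shNpc1 replicate 4 it was 0.22 and passed (adjusted p = 0.0225), as it did with sample weights (0.00932) and after a correction for GC content. Without shNpc1 replicate 5 it was 0.07 and without shControl replicate 2 it was 0.08, neither of which passed (adjusted p = 0.620 and 0.640, within a range of 0.00792 to 0.640 over all settings). Most counter-receptors that leukocytes carry were near 0 in these cells. Of 8 such genes in the table, Itga4, the α4 chain of the Vcam1 receptor, was expressed, with 10.06, 20.10 and 16.56 FPKM in the shNpc1 libraries and 13.14, 11.22 and 12.06 FPKM in the shControl libraries. Its groups overlapped and it did not pass (log2 0.29, limma adjusted p = 0.388).

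Promoter sequence of the members was set beside their response. RefSeq promoters (GRCm38.p6) were found for 7 of the 10 members: Icam1, Selp, Sele, Nfkbia, Tnfaip2, Tnfaip3 and Nfkb2. The 250 bases before each start were searched on both strands for the NF-kB consensus, a 10-base motif, which 7.25% of all 32851 promoters in that table hold. It was present for Nfkbia, Tnfaip2, Tnfaip3 and Nfkb2 and not found in the window of Icam1, Selp or Sele. The last 150 bases before the first listed start are shown for the 4 genes with a match and for Selp, which rose without one. Each reads 5′ to 3′ toward the gene, and capitals mark bases that match the consensus on either strand.
Nfkbia, chr12:55492648-55492797 on the minus strand: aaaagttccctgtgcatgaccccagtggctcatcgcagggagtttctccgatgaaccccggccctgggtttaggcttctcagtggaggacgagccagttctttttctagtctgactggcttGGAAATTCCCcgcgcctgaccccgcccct
Tnfaip2, chr12:111442511-111442660 on the plus strand: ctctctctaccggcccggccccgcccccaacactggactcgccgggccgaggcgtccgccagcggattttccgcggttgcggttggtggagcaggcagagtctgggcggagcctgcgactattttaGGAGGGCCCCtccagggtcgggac
Tnfaip3, chr10:19015411-19015560 on the minus strand: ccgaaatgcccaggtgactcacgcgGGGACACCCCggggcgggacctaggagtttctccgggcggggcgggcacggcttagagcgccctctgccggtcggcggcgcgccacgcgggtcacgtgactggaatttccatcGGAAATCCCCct
Nfkb2, chr19:46304587-46304736 on the plus strand: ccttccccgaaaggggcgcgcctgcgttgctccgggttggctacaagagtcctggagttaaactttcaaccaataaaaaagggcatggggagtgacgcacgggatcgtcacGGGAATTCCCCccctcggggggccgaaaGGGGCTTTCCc
Selp, chr1:164115114-164115263 on the plus strand: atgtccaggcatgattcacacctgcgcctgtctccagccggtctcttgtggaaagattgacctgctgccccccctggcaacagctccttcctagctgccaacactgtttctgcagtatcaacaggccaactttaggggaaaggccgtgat
Of the 4 genes with a match 2 rose and 2 did not pass, and of the 3 without one 1 rose and 2 did not pass. In Nfkb2 overlapping matches begin 39 and 38 bases before the start and another begins at 11. In Nfkbia the match begins at 29 and in Tnfaip2 at 24, and in Tnfaip3 matches begin at 125 and 12. Tnfaip3 has 1 further listed start, which had no match. Nfkb2 has 2, each with 1 match, beginning 236 and 225 bases before them and so outside the bases shown. The 7.25% counts promoters, whereas a gene was counted as holding the motif if any of its starts did. A match is a run of letters and not a measured binding site. Equally, no match does not mean no site, since sites that depart from the consensus or lie elsewhere were not searched for.

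Tnfaip2 (gene 21928), a TNF-inducible gene whose protein takes part in forming membrane protrusions, had the largest fold change of the 10. It had 111.04, 94.55 and 101.11 FPKM in the shNpc1 libraries, against 62.41, 67.59 and 65.77 FPKM in the shControl libraries. The lowest shNpc1 value was well above the highest shControl value. The log2 fold change was 0.64 (SE 0.08, 95% confidence interval 0.46 to 0.82, limma adjusted p = 0.00348), and the call held in all 18 alternative settings. Nfkbia (gene 18035), which encodes the inhibitor IkBα, had 30.43, 29.59 and 31.94 FPKM in the shNpc1 libraries, against 25.05, 25.13 and 25.68 FPKM in the shControl libraries. The groups did not overlap and the rise was small next to that of Tnfaip2, with a log2 fold change of 0.27 (SE 0.06, 95% confidence interval 0.13 to 0.41, limma adjusted p = 0.0248). This call was lost without shControl replicate 1 (adjusted p = 0.117), 2 (0.104) or 3 (0.104) and without shNpc1 replicate 6 (0.104). It was also lost with TPM (0.0542), with library medians equalised (0.0557) and after a GC correction (0.0809), over a range of 0.000366 to 0.117.

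Tnfaip3, Relb and Nfkb2 did not pass. Tnfaip3 (gene 21929), which encodes A20, a ubiquitin-editing enzyme that shuts off the IkB kinase complex, was the lowest member. It had 0.77, 1.16 and 0.94 FPKM in the shNpc1 libraries, against 1.31, 1.16 and 0.86 FPKM in the shControl libraries, with overlap (log2 -0.11, 95% confidence interval -0.39 to 0.18, limma adjusted p = 0.540). Relb (gene 19698) and Nfkb2 (gene 18034) encode the RelB and p100 subunits of the alternative NF-kB branch, in which p100 is cut to p52. Relb had 6.72, 5.45 and 6.35 FPKM in the shNpc1 libraries, against 6.95, 7.16 and 6.97 FPKM in the shControl libraries. All its shNpc1 values were lower than the shControl values, by a margin that did not pass (log2 -0.17, 95% confidence interval -0.37 to 0.04, limma adjusted p = 0.220). Nfkb2 had 35.42, 30.32 and 30.15 FPKM in the shNpc1 libraries, against 31.12, 35.04 and 33.65 FPKM in the shControl libraries. Its groups overlapped, with replicate 4 the highest of all (log2 -0.06, 95% confidence interval -0.26 to 0.14, limma adjusted p = 0.646). Nfkb2 overlaps Psd and 4833438C02Rik in the RefSeq table.

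The authors' deposited table gives its own log2 ratios and q-values for the same genes. It called Tnfaip2 (log2 ratio 0.63, q = 1.01e-06), Selp (0.36, q = 2.11e-05) and Icam2 (-0.47, q = 0.0139) at q under 0.05, which 6.48% of the genes in the authors' deposited table pass as higher and 5.60% as lower. Nfkbia did not pass in the authors' deposited table (log2 ratio 0.26, q = 0.0994). The other 6 members had q from 0.137 for Icam1 to 0.926 for Sele in the authors' deposited table, where Vcam1 had 0.670.

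The spread within the shNpc1 group and the fold changes between the groups both varied with the base composition of the transcripts. Their part in the results was not tested beyond the GC correction. The log2 fold change, shNpc1 minus shControl, had a median of -0.23 over the 20% of tested genes with the lowest GC content. Over the 20% with the highest it was 0.16. On the log2(FPKM + 1) scale, shNpc1 replicate 4 minus the mean of replicates 5 and 6 had a median of -0.47 over the 20% of tested genes with the lowest GC content and of 0.22 over the 20% with the highest. Among the members the GC-poor ones were likewise low in replicate 4. Sele, with 47.5% GC, had a difference of -0.50 and Vcam1, with 44.1% GC, had a difference of -0.29, while Icam2 (53.9% GC) had 0.32 and Nfkb2 (59.4% GC) 0.22. Selp (51.0% GC) and Nfkbia (52.9% GC) differed by -0.01 each. Across the 10 members Pearson's r of GC content with this difference was 0.81, given as a description, since the 10 values come from the same 3 libraries.

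**Figure D2:**
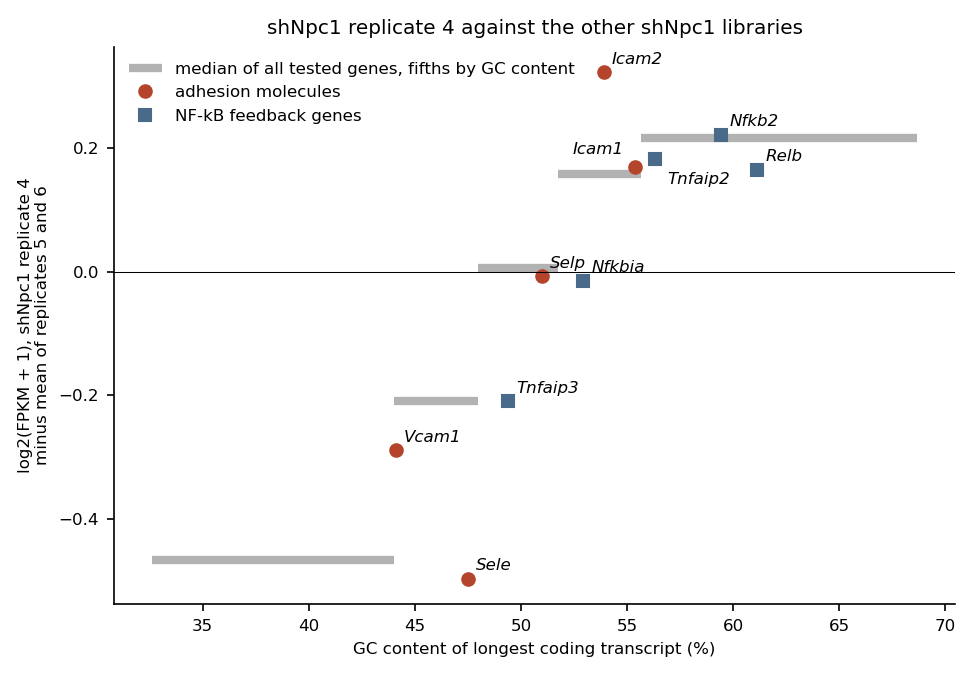
Difference in log2(FPKM + 1) between shNpc1 replicate 4 and the mean of shNpc1 replicates 5 and 6 (vertical axis) against the GC content of the longest coding transcript (horizontal axis, %) for the 10 genes, with grey bars for the medians of all tested genes in 5 equal groups by GC content. Sele and Vcam1 lie low at the GC-poor side and Nfkb2, Relb, Tnfaip2, Icam1 and Icam2 lie above 0 at the GC-rich side, as the grey medians do from -0.47 to 0.22.

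After a correction that subtracts from each library its trend with GC content, Tnfaip2 (log2 0.49, limma adjusted p = 0.000378) and Selp (log2 0.30, adjusted p = 0.00396) were still higher and Icam2 (log2 -0.58, adjusted p = 0.00132) was still lower. Vcam1 then passed as higher (log2 0.25, adjusted p = 0.00792). Relb (log2 -0.36, adjusted p = 0.00558; range over all settings 0.00558 to 0.408) and Nfkb2 (log2 -0.24, adjusted p = 0.0137; range 0.0137 to 0.908) passed as lower, and Nfkbia no longer passed (log2 0.16). The members that rose and fell were then 3 and 3 of 10, beside 13.5% and 11.8% of the 10247 genes tested. Without shNpc1 replicate 4 the members that rose and fell were 4 and 1, beside 18.3% and 10.1% of all genes, with Vcam1 added to those that rose. Tnfaip2, Selp and Icam2 were called in the same direction in these 2 fits and in the fit of all 6 libraries.

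**Figure D3:**
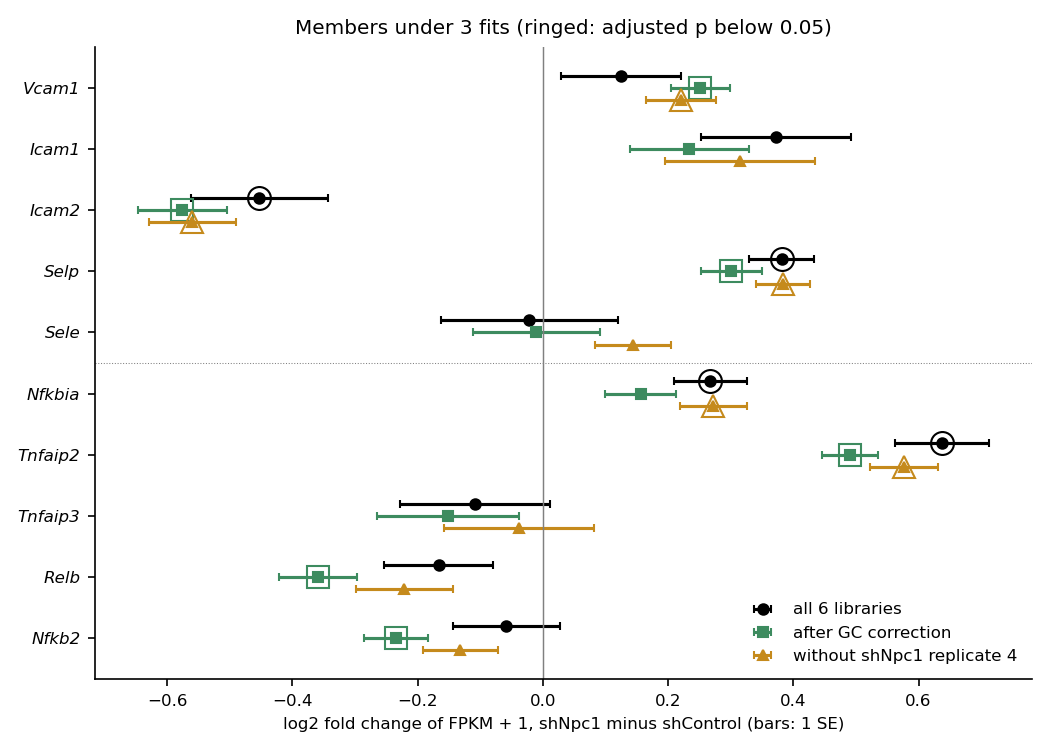
Log2 fold change of FPKM + 1, shNpc1 minus shControl, for each gene (bars give 1 SE) with all 6 libraries (black), after the GC correction (green) and without shNpc1 replicate 4 (orange); ringed points have an adjusted p under 0.05. Tnfaip2 (0.64, 0.49 and 0.58) and Selp (0.38, 0.30 and 0.38) stay to the right of 0 and Icam2 (-0.45, -0.58 and -0.56) to the left in all 3 fits, whereas Sele lies on both sides of 0.

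The rest of the pathway was read from 6 further lists with 75 tested genes, of which 7 rose and 5 fell, beside 12.0% and 5.89% of all genes tested. At an unadjusted p under 0.05, 15 of the 75 were higher and 15 lower, beside 21.9% and 12.8% of all genes tested. At q under 0.05, 4 were higher and 8 lower in the authors' deposited table, beside 6.48% and 5.60% of its genes. Those shares also cover genes with a mean under 1 FPKM, which the 75 leave out. In limma the 7 and 5 became 1 and 1 without shControl replicate 1. All genes that rose and fell were then 332 and 169 of 10400. Leaving out shControl replicate 2 gave 2 and 1 (all genes 428 and 222). Leaving out shControl replicate 3 also gave 2 and 1 (all genes 309 and 160). Without shNpc1 replicate 6 the list genes were 1 and 4 (all genes 474 and 248). Without shNpc1 replicate 4 they were 15 and 12 (all genes 1907 and 1046). Without shNpc1 replicate 5 they were 10 and 9 (all genes 1553 and 1082). Of the 12 genes called, Ikbkg and Ccl5 kept their calls with each library left out. The other 10 lost theirs in at least 1 such fit, at highest adjusted p of 0.0564 for Ccl2 to 0.166 for Tnfrsf1b. Among the receptors that feed NF-kB, 3 of 9 tested rose and 1 fell (median log2 0.25). At q under 0.05, 1 of the 9 was higher in the authors' deposited table (Ltbr) and 2 were lower (Il1rap and Tlr3), while Tnfrsf1a (q = 0.0556) and Tnfrsf1b (q = 0.0636) did not pass in the authors' deposited table. In limma Tlr3, a receptor of double-stranded RNA, had a log2 fold change of -0.41 (adjusted p = 0.0549). Ltbr, the lymphotoxin β receptor that drives the alternative branch, averaged 68.7 ± 12.2 FPKM in shNpc1 cells and 45.5 ± 2.23 FPKM in shControl cells (SD, n = 3 each; log2 0.57, limma adjusted p = 0.0222). Tnfrsf1a, the main TNF receptor, averaged 88.3 ± 9.80 FPKM in shNpc1 cells and 69.2 ± 1.72 FPKM in shControl cells (adjusted p = 0.0382), and Tnfrsf1b, the second TNF receptor, rose at a ratio of 1.34 (0.0426). Both TNF receptors lost their calls without a filter, with library medians equalised and with the trimmed mean of M values. Tnfrsf1b also lost its call after the GC correction. Ltbr kept its call in each of these fits. Il1rap, the accessory chain of the interleukin 1 receptor, fell to a ratio of 0.571 (log2 -0.74, adjusted p = 0.0180).

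Of the 21 kinases and adaptors 1 rose and 0 fell in limma, beside 12.0% and 5.89% of all genes tested. At an unadjusted p under 0.05, 2 were higher and 5 lower, beside 21.9% and 12.8% of all genes tested. At q under 0.05, 1 was higher and 1 lower in the authors' deposited table, beside 6.48% and 5.60% of its genes. Those shares again cover genes with a mean under 1 FPKM too. The gene that rose was Ikbkg, the regulatory subunit NEMO of the IkB kinase complex, with 14.33, 14.57 and 15.06 FPKM in the shNpc1 libraries, against 10.21, 10.50 and 10.75 FPKM in the shControl libraries (log2 0.45, SE 0.06, limma adjusted p = 0.00573). The 3 values of each group were close and the groups did not overlap. The other kinase subunits Ikbkb (log2 0.04) and Chuk (log2 -0.26) did not pass. Of 6 tested subunits and inhibitors Nfkbib, which encodes IkBβ, rose at a ratio of 1.32 (adjusted p = 0.0236), a call lost after the GC correction. In the authors' deposited table Nfkbib had q = 0.0564, and none of the 6 passed there. The subunit genes Rela (log2 0.14, adjusted p = 0.291) and Nfkb1 (log2 -0.05, adjusted p = 0.599) did not pass. Rel, the gene of the c-Rel subunit, had 0.58, 1.07 and 1.06 FPKM in the shNpc1 libraries, against 1.25, 1.41 and 1.41 FPKM in the shControl libraries. Its groups did not overlap, and it did not pass (log2 -0.32, limma adjusted p = 0.122). None of the 10 tested genes of other NF-kB brakes passed in limma at an adjusted p under 0.05, the largest difference being -0.46 for N4bp1 (adjusted p = 0.0647). At an unadjusted p under 0.05, 1 of these brakes was higher and 1 lower, and 0 and 1 passed in the authors' deposited table. The shares of all genes at each threshold are those given above for the kinases and adaptors.

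Among 16 tested genes of adhesion and transmigration other than the members, Cd99l2, a membrane protein that leukocytes use in crossing, rose at a ratio of 1.34 (limma adjusted p = 0.0196). Alcam fell to a ratio of 0.652 (adjusted p = 0.0310) and Ceacam1 to a ratio of 0.514 (adjusted p = 0.0201). Of all genes tested 12.0% rose and 5.89% fell. At an unadjusted p under 0.05, 4 of the 16 were higher and 3 lower, beside 21.9% and 12.8% of all genes tested. At q under 0.05, 1 was higher and 2 lower in the authors' deposited table. Of all genes in that table, tested here or not, 6.48% were higher and 5.60% lower. Icam4 and Icam5, the neighbours of Icam1 on chromosome 9, were under 1 FPKM in every library. Of 13 tested genes that NF-kB can induce, Ccl2 rose and Ccl5 and Plau fell. At an unadjusted p under 0.05, 3 of the 13 were higher and 3 lower. At q under 0.05, 1 was higher and 2 lower in the authors' deposited table. The shares of all genes at each threshold are those just given. Ccl2, a monocyte chemokine, averaged 43.7 ± 2.81 FPKM in shNpc1 cells and 30.3 ± 3.36 FPKM in shControl cells (log2 0.52, limma adjusted p = 0.0139), and Plau, the urokinase gene, averaged 390 ± 20.8 FPKM in shNpc1 cells and 508 ± 6.01 FPKM in shControl cells (log2 -0.38, adjusted p = 0.0104; SD, n = 3 each). Ccl5 fell to a ratio of 0.363 (adjusted p = 0.000168) and kept its call without each library in turn. Another 12 genes of that list stayed under 1 FPKM in every library, among them Il6, Tnf and Cxcl2.

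**Figure D4:**
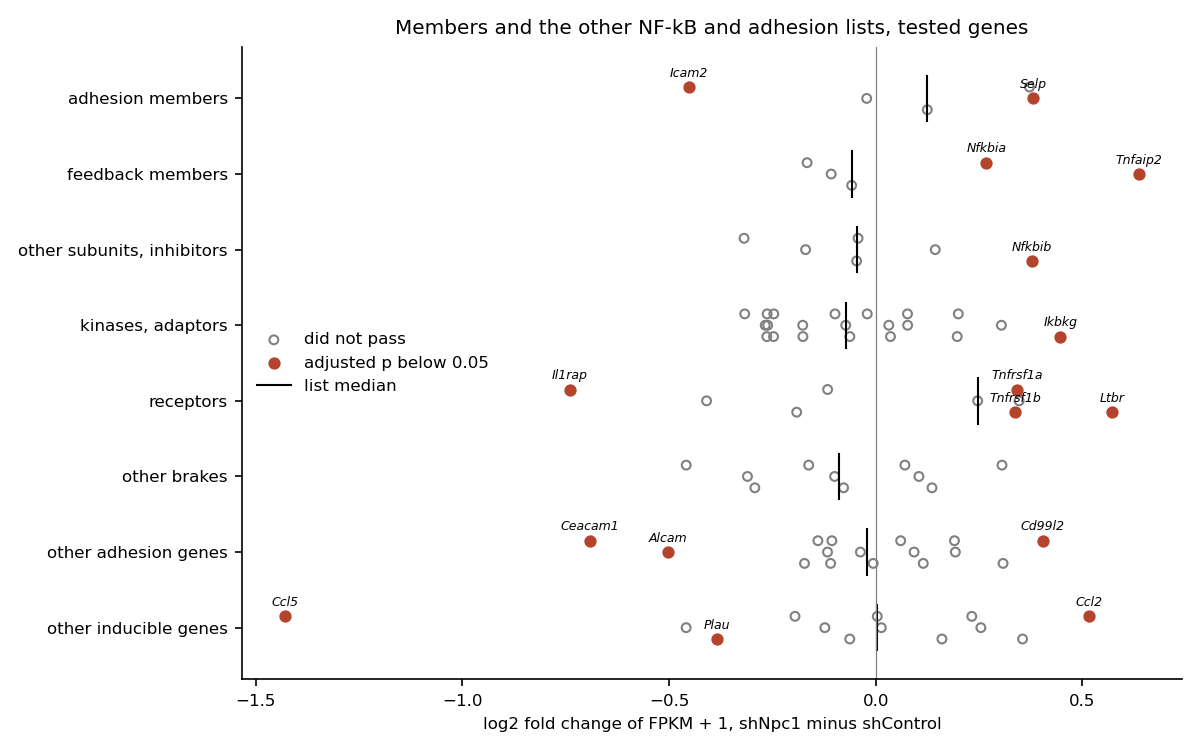
Log2 fold change of FPKM + 1, shNpc1 minus shControl (horizontal axis), of every tested gene in the 2 member groups and in the 6 other NF-kB and adhesion lists; filled points have an adjusted p under 0.05 and black lines are list medians. Genes past the threshold lie on both sides of 0, from Ccl5 at -1.43 to Tnfaip2 at 0.64, and list medians range from -0.09 for the other brakes to 0.25 for the receptors.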

How the data were processed

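Polyadenylated RNA of 6 bEnd.3 samples was enriched on oligo(dT) beads and sequenced from DNA nanoballs, per the labels' protocols. The authors deposited 1 table of FPKM values, rounded to 2 decimals, with their own log2 ratio, p-value and q-value for each gene in the deposited file. The sources used here do not give the aligner, the counting program, the annotation, the genome build or the authors' test. No read counts were used, so no counting interval is given.

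Values were analysed as log2(FPKM + 1) for genes whose 6 values averaged 1 FPKM or more, a scale that understates changes of low genes. The test of the groups was limma 3.58.1 in R 4.3.3 (two-sided, empirical Bayes with trend, Benjamini-Hochberg adjustment over all 10400 genes, threshold 0.05). GC content is that of a gene's longest coding transcript in a GENCODE mouse release, joined on the NCBI gene number for 98.5% of tested genes. The correction subtracts a natural spline with 5 degrees of freedom. The 18 alternatives were 2 pseudocounts, 2 filters, 4 scalings, 3 limma settings, the GC correction and each library left out.

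The members, the lists and the alternatives were chosen with earlier results of these data known. Named are Npc1, all members, Rela and Nfkb1, endothelial markers near 0 and, of each list, the genes past the threshold or, where none passed, up to 4 with the smallest p. Other genes, among them Rel, Ikbkb, Chuk, Tlr3, Itga4 and neighbours in the genome, were named after their values were seen. Promoters are RefSeq's (GRCm38.p6). As the table names no build, no gene coordinates are given.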

Additional observations from a re-analysis of the deposited data

How the results depend on the processing

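Among the members, Tnfaip2 and Selp kept their direction and stayed past the threshold in all 18 alternatives, and Npc1 did so in all 17 in which it was tested. Icam2 passed in 12 of 18 and Nfkbia in 11 of 18. Vcam1 passed in 3, Icam1 and Nfkb2 in 2 each and Relb in 1, while Sele and Tnfaip3 passed in none of those in which they were tested. The value of Sele changed sign with sample weights (0.082) and without shNpc1 replicate 4 (0.14), and lay between -0.14 and 0.14 with a library left out.

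The members that fell, 1 with all 6 libraries, were 0 without a filter and with library medians equalised, 2 with sample weights and 3 after the GC correction, and 0 to 1 with a library left out. Those that rose, 3 with all 6 libraries, were 5 with sample weights and 2 to 4 with a library left out. In the other lists, where 7 rose and 5 fell, 11 rose with TPM and 19 with sample weights, and 1 to 15 with a library left out. Those that fell were 3 with a mean of at least 5 FPKM, 8 with library medians equalised and with trimmed mean of M values, 9 with quantile normalization, 22 with sample weights, 17 after the GC correction and 1 to 12 with a library left out. Over all genes, 1251 rose and 613 fell. With sample weights these were 2969 and 2008, after the GC correction 1379 and 1210, and with a library left out 309 to 1907 and 160 to 1082. Equalising medians gave 844 and 755, and the trimmed mean of M values 982 and 741. TPM gave 1404 and 433, and quantile normalization 1129 and 791. No filter gave 1070 and 586 of 15893 genes, and a mean of at least 5 FPKM 1080 and 468 of 8271. The cause of these differences was not tested. No scaling moved the median log2 fold change of all genes by as much as 0.1. No paired analysis was possible because the groups share no replicate numbers. Depth is unknown, so for Tnfaip3 and Icam1, the lowest members, the precision is that of the 3 values per group.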
